A study of Mus musculus with 18 samples.

Results

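The carbonic anhydrases of NMuMG cells were examined on arrays after treatment with halofuginone (HF) or with its derivative MAZ1310. The 10 genes Car2, Car3, Car4, Car5b, Car6, Car7, Car8, Car9, Car12 and Car13 were taken by the gene symbol that the array platform gives to each probe, which yielded 16 probes of 21973 and 10 genes of 16675. Of all probes, 21020 carried a gene symbol. The array also held 6 other carbonic anhydrase genes with 1 probe each (Car1, Car5a, Car10, Car11, Car14 and Car15), which are counted below with the genes around the family. The family was chosen from the log2 differences between HF and MAZ1310, above all the unequal readings of the 2 Car6 probes. The differences of the members are therefore given as descriptions, with no p-value. Confidence intervals of members, and whether a member passed the threshold of the fit over all genes, describe the same values and are no independent test.

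NMuMG is an epithelial line from normal mouse mammary gland. Cells received 10 nM HF, or 10 nM MAZ1310 as the inactive control compound, and were harvested after 8 h. Each treatment had 3 cultures, and the RNA of each culture was hybridized to 3 technical arrays, which gave 18 arrays in all. All cultures came from 1 cell line, both compounds were added in acidified DMSO shortly after plating, and a culture with DMSO alone is not analysed here.

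Carbonic anhydrases are zinc enzymes that turn carbon dioxide and water into bicarbonate and a proton, and back again. The mammalian forms differ mainly in where they work: in the cytosol, in mitochondria, at the outer face of the plasma membrane or, for Car6 alone, in secreted fluids such as saliva and milk. Cells use them to set their internal and surrounding pH, to move acid and bicarbonate across membranes together with anion exchangers and proton pumps, and to feed bicarbonate to carboxylases. Car6 of the mouse has been described in 2 forms in earlier work, the secreted enzyme of glands and an intracellular form made from an internal promoter under stress, for which the transcription factor Ddit3 (CHOP) was needed in mouse cells.

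Values are log2 intensities, averaged over the technical arrays of a culture. Across all genes, 504 passed a limma adjusted p of 0.05, 242 higher and 262 lower in HF, which is 3.02% of the genes tested. The lowest correlation between any arrays was 0.890. The median SD over all probes was 0.278 between single technical arrays of a culture and 0.242 between culture means of a treatment. The table gives no detection call, so the dim end was gauged with 49 probes of 45 genes restricted to tissues such as liver, retina or testis, which is a choice of genes and not a measured background. Their median level was 6.50 and their 90th percentile 8.50, and 43.0% of all probes lay above that percentile. Of 15 epithelial markers, 9 had a probe above it, against 0 of 9 fibroblast markers, 0 of 9 adipocyte and muscle markers, 0 of 7 measured salivary and lacrimal gland markers and 3 of 6 measured blood and endothelial markers. Adipoq, Lep, Ckm, Smgc, Bpifa2 and Cd3e were also among the tissue-restricted genes that set this line. The counts of their marker lists are therefore not independent of it. As RNA of whole cultures was measured, fewer cells of a type and less RNA per cell cannot be told apart.

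The Car6 gene lies on mouse chromosome 4 (GRCm38, 150187015 to 150201135). Its upstream sequence is shown because Car6 holds the largest difference of the family, and that of Car9 because Car9 is a textbook target of hypoxia-inducible factors, whose core motif ACGTG stands close to its start. The 250 bases before the annotated start are given 5′ to 3′ on the gene's own strand, from RefSeq (GRCm38.p6), with motif matches in capitals. Car6 is at chr4:150201136-150201385 on the minus strand and Car9 at chr4:43506776-43507025 on the plus strand.
Car6: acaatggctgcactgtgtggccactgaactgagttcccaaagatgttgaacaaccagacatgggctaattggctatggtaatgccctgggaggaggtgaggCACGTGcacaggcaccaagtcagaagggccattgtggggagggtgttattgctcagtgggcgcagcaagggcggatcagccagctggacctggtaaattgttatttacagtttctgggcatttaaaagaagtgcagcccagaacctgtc
Car9: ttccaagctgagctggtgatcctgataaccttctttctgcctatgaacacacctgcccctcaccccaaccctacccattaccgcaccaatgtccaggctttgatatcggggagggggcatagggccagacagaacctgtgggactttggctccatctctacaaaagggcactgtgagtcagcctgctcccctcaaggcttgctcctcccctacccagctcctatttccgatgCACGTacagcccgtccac

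The capitals mark the palindromic E-box CACGTG in Car6, which begins at base -149 from the start and also holds ACGTG on both strands, and the ACGTG core in Car9, which lies at -18 and reads CACGT on the strand shown. Promoters of 6 of the 10 genes (8 promoters) were in the table, and 3 motifs were searched on both strands of the 250 bases. ACGTG was in 2 of the 8, against 16.6% of 32851 promoters of all genes, and CACGTG was in 1 of the 8, against 6.02%. The C/EBP-ATF response element, searched as TGATGNAAN, was in 0 of the 8 and in 3.44% of all promoters. The internal start of the intracellular Car6 form is not in this table, and a match or its lack in these windows is only a statement about letters.

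Car6 had 2 probes, and they read differently. Probe 2 (mMC025912) stood at 9.81, 10.08 and 10.16 in the HF cultures, against 5.82, 5.64 and 5.74 in the MAZ1310 cultures. The groups lay far apart, with little spread inside either. Mean levels were 10.02 ± 0.18 in HF and 5.73 ± 0.090 in MAZ1310 (SD, n = 3 cultures each), which in intensity units is 1035 in HF and 53.2 in MAZ1310. The difference was 4.28 on the log2 scale (SE 0.15, 95% confidence interval 3.93 to 4.64), a ratio of 19.5 between the measured intensities (15.3 to 24.8). The MAZ1310 side of this ratio was read at the dim end of the array, so its size depends on the floor of the scale: with a pseudocount of 50 the difference was 3.39.

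Probe 1 (mMC003923) stood at 8.03, 8.83 and 8.39 in HF, against 8.07, 8.46 and 8.35 in MAZ1310. The cultures of the treatments were mixed, with an HF culture both below and above all MAZ1310 cultures. The difference was 0.12 on the log2 scale (SE 0.23, 95% confidence interval -0.42 to 0.66), so that a 1.58-fold rise and a fall to 0.750 of the MAZ1310 intensity both lay within the interval.

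The same held on single arrays. On the 9 HF arrays probe 2 had a lowest value of 9.19, a median of 9.90 and a highest of 10.70, against 5.47, 5.68 and 6.32 on the 9 MAZ1310 arrays. Every HF array was thus brighter than every MAZ1310 array on this probe. Probe 1 had a lowest value of 7.85, a median of 8.41 and a highest of 8.96 on HF arrays, against 8.00, 8.28 and 8.80 on MAZ1310 arrays, with overlap over most of the range. On probe 2 the SD was 0.46 between single technical arrays of a culture and 0.14 between culture means within a treatment. On probe 1 these SDs were 0.20 and 0.32. A culture mean averages its technical arrays, so these SDs do not directly compare technical spread with spread between cultures.

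**Figure D1:**
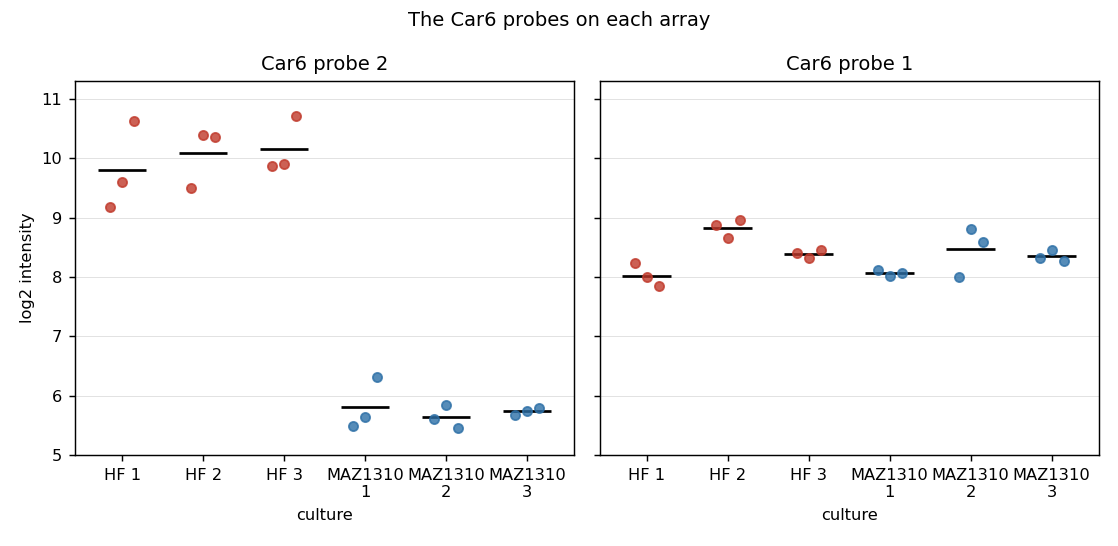
Log2 intensity (vertical axis) of Car6 probe 2 (left) and Car6 probe 1 (right) on each of the 18 arrays, by culture, with HF in red and MAZ1310 in blue. Points are technical arrays and bars are culture means. On probe 2 all HF points lie at 9.19 or above and all MAZ1310 points at 6.32 or below, whereas on probe 1 both treatments lie between 7.85 and 8.96.

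In MAZ1310, probe 2 was at the dim end of the array. It stood at the 1.53 percentile of all probes there, and 1 of the 49 tissue-restricted probes was dimmer. In HF it reached the 74.7 percentile, above the 90th percentile of the tissue-restricted probes. Probe 1 was at the 56.0 percentile in HF and the 54.4 percentile in MAZ1310. In MAZ1310, 42 of the 49 tissue-restricted probes were dimmer than probe 1, and its mean stayed under their 90th percentile in both treatments. As levels of different probes depend on the probe, the brighter reading of probe 1 in MAZ1310 does not say that it found more Car6 RNA. Where on the Car6 transcripts the probes lie was not known here, so whether they read different forms was not tested.

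The gene value hides this split. As the median over its 2 probes, Car6 stood at 8.92, 9.46 and 9.28 in HF, against 6.95, 7.05 and 7.05 in MAZ1310. The difference was 2.20 (SE 0.17, 95% confidence interval 1.81 to 2.59), a 4.60-fold change that neither probe showed. Taking the brightest probe of each gene instead, which is probe 1, the Car6 difference was 0.12. The spread between the Car6 probes was 4.16 on the log2 scale, and Car6 held rank 1 of 3539 genes with more than 1 probe by that measure. The choice of the family had used this disagreement, so the rank restates it. The size of the spread also depends on the floor of the scale, as the difference of probe 2 does. The other members with several probes ranked much lower, with spreads of 0.35 for Car8 (rank 1204), 0.12 for Car5b (rank 2622) and 0.0045 for Car3 (rank 3496).

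Among all 21973 probes, Car6 probe 2 held rank 1 by its log2 difference, and rank 4 with a pseudocount of 50, where Atf5 came first (3.72). Without the pseudocount the next probes belonged to Atf5 (3.77), Ndrg1 (3.55), Ddit3 (3.55), Nupr1 (3.52) and Trib3 (3.44). The probes whose pattern over the 6 cultures was most like that of Car6 probe 2, by the root mean square difference of log2 values centred on the mean of the 6 cultures, were those of the same genes. This measure is set mostly by the size of the rise, which the choice of the family had used, so it largely restates the order above. Atf5, a transcription factor of the stress response, was nearest (0.36). Next came a probe of Ndrg1 (mMC017365), a gene induced in stressed and growth-arrested cells (0.42), Ddit3, the stress transcription factor CHOP (0.49), Nupr1, a small nuclear stress protein (0.53), the other Ndrg1 probe (mMC025239, 0.58) and Trib3, a pseudokinase (0.61). By the same measure Car6 probe 1 was 2.10 away, at rank 6745 of likeness.

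Atf5 stood at 14.27, 14.69 and 14.07 in HF, against 10.52, 10.37 and 10.83 in MAZ1310. Ddit3 stood at 12.47, 12.01 and 11.75 in HF, against 8.47, 8.57 and 8.55 in MAZ1310. Atf5 was above the 90th percentile of the tissue-restricted probes in every culture, as was Ddit3 in every culture but MAZ1310 replicate 1.

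**Figure D2:**
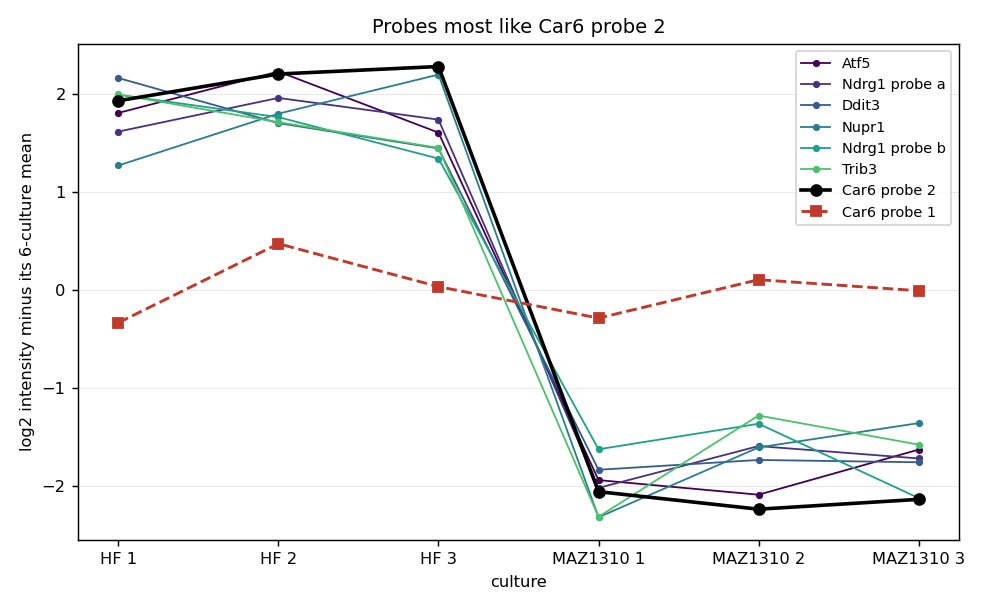
Log2 intensity minus each probe's mean over the 6 cultures (vertical axis) in the 3 HF and 3 MAZ1310 cultures (horizontal axis), for Car6 probe 2 (black), the 6 probes nearest to it and Car6 probe 1 (red, dashed). Lines join the values of a probe and show no order of cultures. Car6 probe 2 and its neighbours stand high in HF and low in MAZ1310, at root mean square differences of 0.36 to 0.61, and Car6 probe 1 stays near 0.

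The other members differed far less between the treatments. By gene, 1 of the 10 members (Car6) passed the limma threshold as higher in HF and 0 as lower, beside 1.45% of all genes higher and 1.57% lower; since the choice of the family used this contrast, nothing is read from these counts. Cultures did not overlap for 2 members higher in HF (Car2 and Car6) and 2 lower (Car5b and Car12), beside 11.2% of all genes higher and 9.85% lower. The median difference was 0.0044 over the 10 members and -0.0020 over all genes, and 5 of the 10 were positive. By probe, 1 of 16 passed, beside 2.23% of all probes, and cultures did not overlap for 2 higher and 4 lower, beside 11.1% and 9.07% of all probes.

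The mitochondrial enzyme Car5b, which supplies bicarbonate to carboxylases inside that organelle, had 4 probes, and all of them read lower in HF. Probe 1 (mMC007000) stood at 10.38, 10.82 and 10.58 in HF, against 11.02, 10.83 and 11.09 in MAZ1310. Probe 2 (mMC019215) stood at 10.50, 10.37 and 10.30 in HF, against 10.91, 10.81 and 10.29 in MAZ1310. The HF cultures lay below all MAZ1310 cultures on probe 1, though narrowly, whereas on probe 2 MAZ1310 replicate 3 lay just below all HF cultures. Probe 3 (mMC023889) stood at 10.18, 10.07 and 10.31 in HF, against 10.37, 10.53 and 10.85 in MAZ1310, with no overlap. Probe 4 (mMC016829) stood at 10.18, 9.55 and 10.05 in HF, against 10.13, 10.25 and 10.31 in MAZ1310, with HF replicate 1 above the lowest MAZ1310 culture. The 4 differences ran from -0.40 to -0.28, with SEs of 0.16 to 0.19. These probes read 1 gene in the same RNA and are not replicates of the treatment.

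The Car5b gene median was steadier than its probes. It stood at 10.28, 10.22 and 10.25 in HF, against 10.58, 10.58 and 10.60 in MAZ1310, with a difference of -0.34 (SE 0.12, 95% confidence interval -0.61 to -0.068), which is 0.791 of the MAZ1310 intensity. Car5b did not pass the threshold after adjustment over all genes. Car5b and Car2 were read at the bright end of the family: the Car5b probes and the Car2 probe were above the 90th percentile of the tissue-restricted probes in both treatments, between the 75.0 and 82.8 percentiles of all probes over the 18 arrays.

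Car2, the fast cytosolic enzyme found in many tissues, stood at 10.18, 10.33 and 10.04 in HF, against 9.80, 9.94 and 9.88 in MAZ1310. All HF cultures were higher, by a difference of 0.31 (SE 0.13, 95% confidence interval -0.0051 to 0.62), and Car2 did not pass the threshold. For Car2 the SD was 0.47 between single technical arrays of a culture and 0.11 between culture means, which average those arrays. Taking the median over technical arrays in place of the mean gave a difference of 0.17. The other cytosolic members were dimmer. Car13 stood at 6.09, 6.33 and 6.61 in HF, against 6.25, 6.26 and 6.33 in MAZ1310, and its HF values spread around those of MAZ1310. Car3, abundant in muscle, fat and liver and a weak catalyst, had differences of 0.12 on both of its probes, with SEs of 0.14.

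Car13, Car3 and Car2 lie in a cluster on chromosome 3, between 14641727 and 14900770 (GRCm38), with Car1 between Car13 and Car3. The Car1 probe differed by 0.10 (SE 0.14). The differences of the members were 0.07 for Car13, 0.12 for Car3 and 0.31 for Car2, with SEs of 0.13 to 0.16, and the 95% confidence intervals of all 3 held 0. Car13 and Car3 were read at the dim end, at percentiles of 4.19 to 29.4 of all probes.

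Car7, a cytosolic enzyme best known from neurons, stood at 7.54, 7.83 and 8.38 in HF, against 7.39, 7.89 and 8.34 in MAZ1310. The spread between cultures was 0.43 in HF and 0.47 in MAZ1310 (SD), with that of Car9 the widest of the member genes, and the treatments overlapped fully. The difference of 0.04 had an SE of 0.30, so its 95% confidence interval of -0.65 to 0.74 leaves room for a change in either direction in this fit. In both treatments the values rose in the order of the replicate numbers. The fit has no term for the replicate number, so this shared spread enters the SE and widens the interval.

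Among the membrane members, Car12, a transmembrane enzyme facing outward, stood at 8.33, 8.29 and 8.15 in HF, against 8.72, 8.52 and 8.36 in MAZ1310. All HF cultures were below all MAZ1310 cultures, by a difference of -0.28 (SE 0.14, 95% confidence interval -0.62 to 0.060), and Car12 did not pass the threshold. Its mean crossed the 90th percentile of the tissue-restricted probes, with 8.25 ± 0.096 in HF below it and 8.53 ± 0.18 in MAZ1310 above it (SD, n = 3 each). Car9, the outward-facing enzyme induced by hypoxia, stood at 7.27, 6.56 and 6.39 in HF, against 7.30, 6.56 and 6.45 in MAZ1310. In each treatment the culture numbered 1 was the high one, and the difference was -0.03 (SE 0.31, 95% confidence interval -0.75 to 0.68). As for Car7, this spread is alike in both treatments and enters the SE. Car4, which is held to the membrane by a lipid anchor, stood at 6.41, 6.19 and 6.18 in HF, against 6.30, 6.39 and 6.24 in MAZ1310, a difference of -0.05 (SE 0.13) with full overlap.

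Car8, a protein of the family that has lost the catalytic activity and is known for its role in Purkinje cells, had 2 of the dimmest probes. Probe 1 (mMR030442) stood at 5.61, 5.69 and 5.67 in HF, against 6.25, 5.76 and 5.91 in MAZ1310. Cultures did not overlap on it, MAZ1310 replicate 1 stood highest, and the difference was -0.32 (SE 0.16). Probe 2 (mMC009790) gave 0.03 (SE 0.14), and the gene median gave -0.15 (SE 0.15), which was not past the threshold.

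In order of mean level, with levels of different genes not comparable beyond this rough order, the members above the 90th percentile of the tissue-restricted probes in both treatments were Car5b and Car2. Car12 was above it in MAZ1310 only and Car6 probe 2 in HF only. The remaining 9 probes, of Car3, Car4, Car7, Car8, Car9, Car13 and Car6 probe 1, were below it in both treatments.

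**Figure D3:**
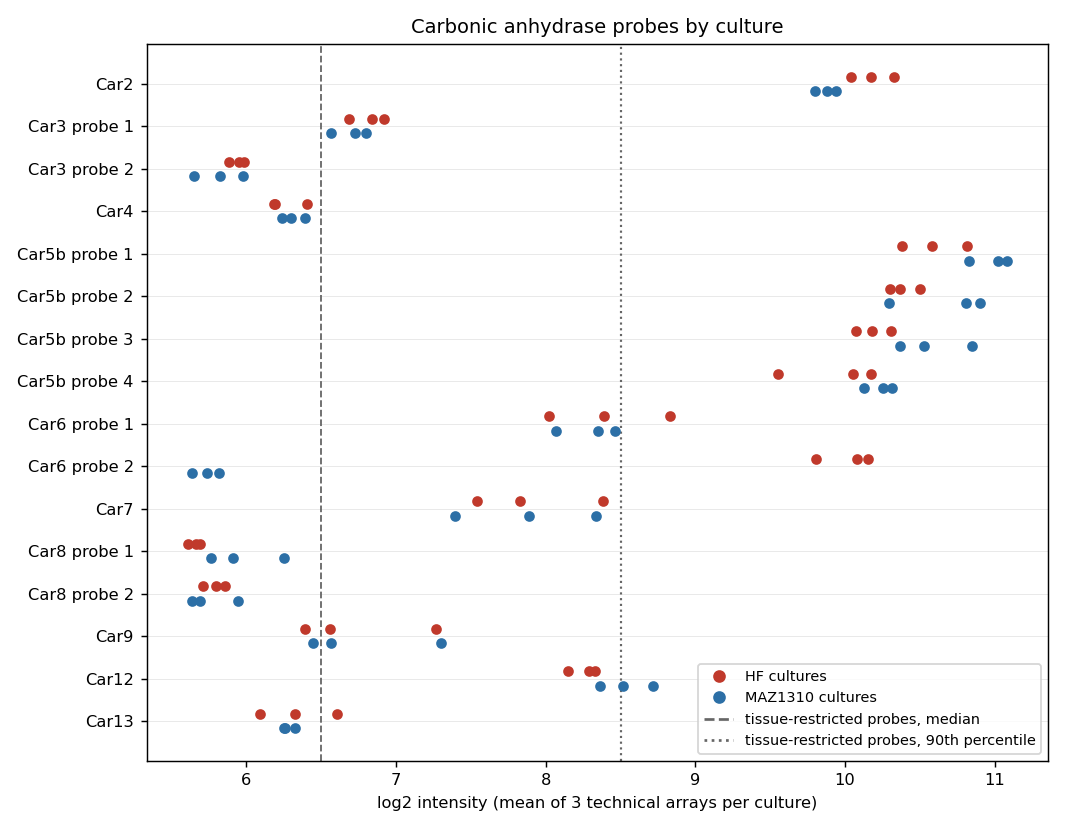
Log2 intensity (horizontal axis, mean of 3 technical arrays) of the 16 member probes (rows) in each HF culture (red, upper) and each MAZ1310 culture (blue, lower). The dashed line is the median (6.50) and the dotted line the 90th percentile (8.50) of the tissue-restricted probes. The treatments stand far apart on Car6 probe 2 and lie close together or mixed on the other 15 probes.

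**Figure D4:**
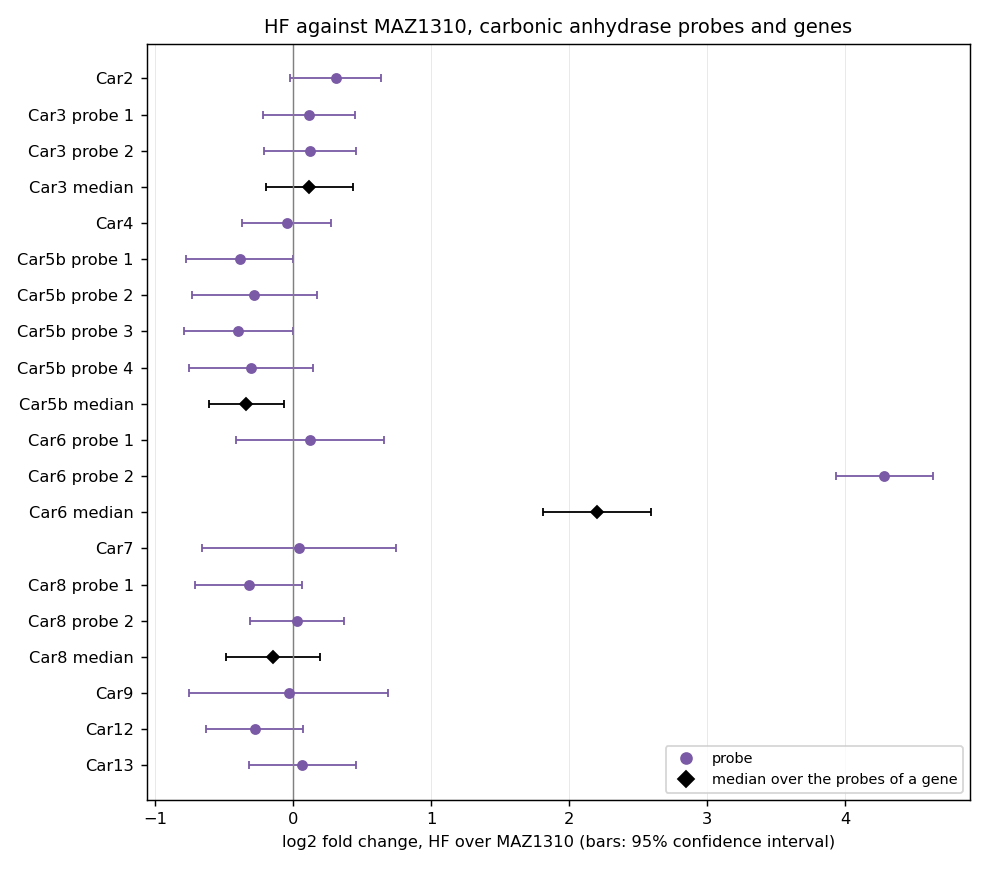
Log2 fold change of HF over MAZ1310 (horizontal axis) for each member probe (purple circles) and for the median over the probes of a gene (black diamonds, genes with more than 1 probe), with 95% confidence intervals as bars. Car6 probe 2 lies at 4.28, the Car6 median at 2.20 and Car6 probe 1 at 0.12, and all other points lie between -0.40 and 0.31.

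The genes around the family were counted from 6 lists. Of the other 6 carbonic anhydrases and the 2 receptors with a carbonic anhydrase-like domain, 0 of 8 passed the test by limma, beside 3.02% of all genes. With no adjustment, 0 of the 8 had a limma p under 0.05, beside 16.5% of all genes. The median of the 8 was -0.10 and they ran from -0.32 to 0.29. Those nearest to passing were Car15 (0.29, SE 0.18, limma adjusted p = 0.565), Car5a, the other mitochondrial enzyme (0.16, SE 0.12, limma adjusted p = 0.630), Car11 (-0.32, SE 0.26, limma adjusted p = 0.691) and the receptor Ptprz1 (-0.15, SE 0.15, limma adjusted p = 0.769). All 8 genes were below the 90th percentile of the tissue-restricted probes. The median probe of this list stood at the 25.8 percentile of all probes, so dim signal limits part of it.

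Among bicarbonate transporters and anion exchangers, 1 of 19 measured genes rose and 0 fell, beside 1.45% and 1.57% of all genes, with a list median of 0.083 beside -0.0020 over all genes. Slc26a11, an anion transporter of the SLC26 family, stood at 7.87, 7.49 and 7.96 in HF, against 6.53, 6.60 and 6.66 in MAZ1310. The groups were well apart, with a difference of 1.17 (SE 0.16, limma adjusted p = 0.0202). With no adjustment, 1 of the 19 had a limma p under 0.05, beside 16.5% of all genes. The median probe of this list stood at the 29.5 percentile of all probes, so dim signal limits part of it. Of the 19 genes, 2 had a probe above the 90th percentile of the tissue-restricted probes. Slc26a11 itself was below that percentile in every culture. The other 18 lay between -0.20 and 0.21. They included Slc26a8 (-0.20), Slc4a11 (0.20), Slc26a10 (probe symbol C78409, 0.19) and Slc26a5 (0.21), with limma adjusted p values of 0.529 to 0.730.

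Among proton and lactate exporters and their partners, 0 of 18 measured genes rose and 2 fell, beside 1.57% of all genes that fell, and the list median was -0.0063. Both that fell are scaffold proteins that regulate the sodium-proton exchanger Slc9a3, not transporters. Slc9a3r1 stood at 9.61, 10.15 and 10.48 in HF, against 11.44, 11.34 and 11.54 in MAZ1310, a difference of -1.36 (SE 0.22, limma adjusted p = 0.0296). Slc9a3r2 stood at 8.29, 8.10 and 8.12 in HF, against 9.71, 9.27 and 9.03 in MAZ1310, a difference of -1.17 (SE 0.19, limma adjusted p = 0.0296). In both genes every HF culture was below every MAZ1310 culture. The proton channel Hvcn1 (-0.52, limma adjusted p = 0.139) and the lactate carrier Slc16a1 (-0.50, limma adjusted p = 0.296) did not pass, and Slc9a3 itself gave -0.17. With no adjustment, 4 of the 18 had a limma p under 0.05, all of them lower in HF, beside 16.5% of all genes. The median probe of this list stood at the 30.3 percentile of all probes, so dim signal limits part of it. Of the 18 genes, 4 had a probe above the 90th percentile of the tissue-restricted probes.

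Of 24 measured subunits of the vacuolar proton pump, which acidifies lysosomes and endosomes, 1 rose and 0 fell, beside 1.45% of all genes that rose, and the list median was 0.070. Atp6v1c1, a subunit of its cytosolic part, stood at 12.19, 12.16 and 12.14 in HF, against 11.38, 11.50 and 11.61 in MAZ1310, a difference of 0.66 (SE 0.13, limma adjusted p = 0.0431). Tcirg1, an isoform of the membrane subunit a, had the largest difference that did not pass (-0.76, SE 0.17, limma adjusted p = 0.0703), followed by Atp6v1d (0.61, limma adjusted p = 0.0887) and Atp6ap2 (0.60, limma adjusted p = 0.449). With no adjustment, 3 of the 24 had a limma p under 0.05, 2 higher and 1 lower in HF, beside 16.5% of all genes.

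Of the 11 enzymes that use bicarbonate or handle their biotin, 0 passed by limma, beside 3.02% of all genes, and the list median was -0.12. With no adjustment, 3 of the 11 had a limma p under 0.05, beside 16.5% of all genes. Btd, which recycles the biotin of carboxylases, differed most (-0.90, SE 0.20, limma adjusted p = 0.0648). Acaca, the carboxylase of fatty acid synthesis, gave -0.43 (limma adjusted p = 0.218), Hlcs, which attaches biotin, gave 0.44 (limma adjusted p = 0.225) and Acacb gave 0.26 (limma adjusted p = 0.403). Of the 11 genes, 4 had a probe above the 90th percentile of the tissue-restricted probes.

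Of 23 measured hypoxia genes, listed because Car9 and Car12 are known to respond to low oxygen, 3 rose and 0 fell, beside 1.45% and 1.57% of all genes, with a list median of -0.071. The list holds targets of the hypoxia response and also its regulators Hif1a, Epas1, Arnt and Vhl, and Vhl is 1 of the 3 that rose. An unadjusted p under 0.05 was reached by 8 of the 23, of which 5 were higher and 3 lower in HF, beside 16.5% of all genes. Vegfa, the vascular growth factor, stood at 12.07, 11.83 and 12.68 in HF, against 9.77, 10.58 and 10.89 in MAZ1310, a difference of 1.78 (SE 0.33, limma adjusted p = 0.0405). Hk2, a hexokinase, stood at 13.23, 12.88 and 13.37 in HF, against 11.85, 12.31 and 12.11 in MAZ1310, a difference of 1.07 (SE 0.19, limma adjusted p = 0.0351). Vhl (probe symbol Vhlh), which marks hypoxia-inducible factors for degradation, stood at 11.29, 11.03 and 11.27 in HF, against 9.94, 10.56 and 10.08 in MAZ1310, a difference of 1.01 (SE 0.19, limma adjusted p = 0.0431). In all 3 genes every HF culture was above every MAZ1310 culture. Pdk1 gave -0.75 (limma adjusted p = 0.0688) and Pfkfb3 gave 0.87 (limma adjusted p = 0.0935), and the value of Car9 was -0.03 beside them. The following genes were named after their values were seen, and none passed. The glycolytic enzymes Pgam1 (-0.65, limma adjusted p = 0.0975) and Ldha (-0.57, limma adjusted p = 0.109) were lower, while Hif1a was higher (0.74, limma adjusted p = 0.298). Tpi1 (-0.22), Pgk1 (-0.11) and Gapdh (0.33, read at the dim end), also glycolytic, had limma adjusted p values of 0.522 to 0.822. In MAZ1310 replicate 3, Pgam1, Ldha and Pgk1 all stood at 15.98, close to the top of the scale (an intensity of 65535). The size of their differences can therefore be limited by that ceiling.

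These list counts depended on single cultures. The hypoxia count was 1 (Vegfa) without MAZ1310 replicate 1 and 0 without any other culture. The exporter count was 1 without MAZ1310 replicate 1 (Slc9a3r2) or HF replicate 3 (Slc9a3r1) and 0 without any of the other 4. Atp6v1c1 did not pass without any 1 of the 6 cultures, and the pump count was 0 in these fits except without MAZ1310 replicate 1, where Tcirg1 passed as lower. The transporter count was 1 without MAZ1310 replicate 1 or HF replicate 2 and 0 without any of the other 4. The fit has fewer cultures then, and across all genes between 33 and 135 were called higher with a culture left out, against 242 with all.

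**Figure D5:**
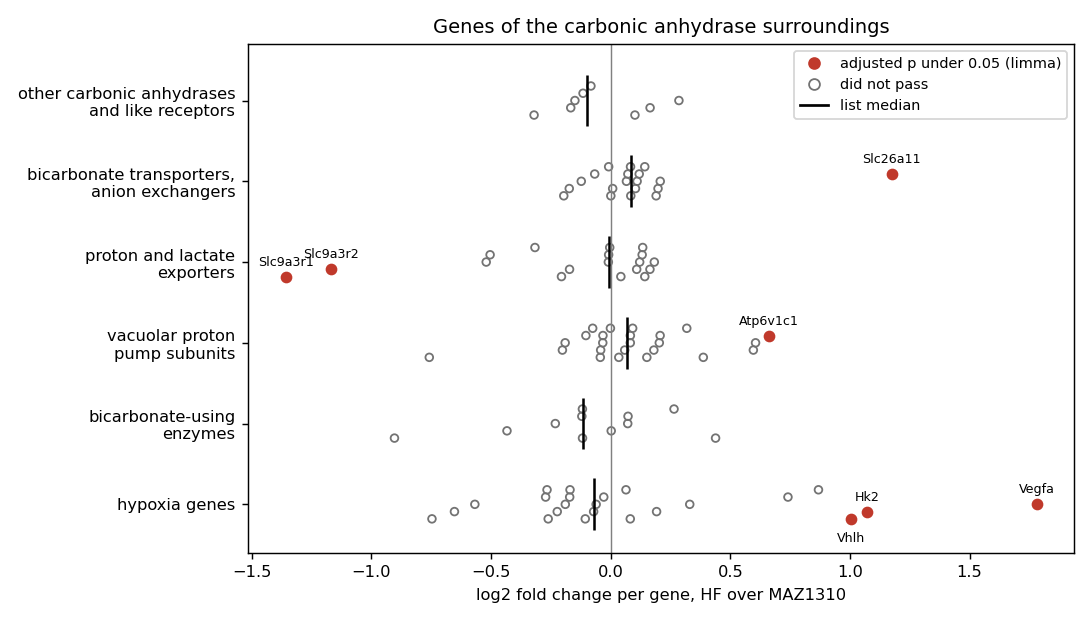
Log2 fold change of HF over MAZ1310 per gene (horizontal axis) in the 6 lists of genes around the family (rows), with genes past a limma adjusted p of 0.05 filled and named, the others open, and each list's median as a black bar. Vertical offsets within a row only separate the points. The list medians lie between -0.12 and 0.083, and 7 genes are filled.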

How the data were processed

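Total RNA of the 6 cultures was labelled and hybridized to Phalanx Mouse OneArray arrays, 1 color per array. The deposited table holds linear intensities of 21973 probes, which the authors quantile-normalized after dropping probes with a negative or missing value; scanner and background steps are not given in the sources used here. They ran from 36.4 to 65535, and no member reached the top (highest 3292). Probes were named from the platform annotation (953 had no symbol), with 13905 symbols current and 2728 found as synonyms in the GRCm38 names table. Intensities were put on log2 with no pseudocount, technical arrays were averaged per culture, and probes and genes (median over probes) were fitted in R 4.3.3 by lmFit and eBayes of limma 3.58.1 (two-sided, no term but treatment), with Benjamini-Hochberg adjustment over all genes or all probes and a threshold of 0.05. The median SE of a gene was 0.178, and the number of cultures limits the precision. The fit was tested on simulated data. Replicates are cultures labelled as biological replicates; arrays of a culture are technical and were not counted in n.

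The members, the lists and the rule for naming genes were chosen with earlier results of these data known. The rule took every member and its probes, the 6 probes nearest to the Car6 probe with the larger change and, in each list, the 4 genes with the smallest p and the gene with the largest difference that did not pass. No p is given for members. The alternatives covered scaling, a filter on dim probes, summaries over probes and technical arrays, random and replicate blocks, eBayes options, the adjustment, a pseudocount of 50 and each culture left out.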

Additional observations from a re-analysis of the deposited data

Results flagged for a closer look

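The highest and the lowest of the 9 arrays of a treatment were compared with their nearest neighbour for each member probe, which gave 32 groups of arrays. Chance alone would mark about 1 in 20 groups, and 5 arrays were marked because their gap took a larger share of the group's range than Dixon's critical value for 9 values. The arrays of a culture share their RNA, so the 9 values of a treatment are not independent.

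Technical array 3 of HF replicate 3 was the highest HF array for Car13, at 7.08 with the next at 6.43, and for Car3 probe 1, at 7.36 with the next at 6.91. Technical array 2 of MAZ1310 replicate 1 was the lowest MAZ1310 array for Car3 probe 1, at 6.34 with the next at 6.64. Technical array 1 of MAZ1310 replicate 1 was the lowest for Car5b probe 4, at 9.63 with the next at 10.09. Technical array 3 of MAZ1310 replicate 1 was the highest MAZ1310 array for Car6 probe 2, at 6.32 with the next at 5.84, and still lay below the lowest HF array at 9.19.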

How the results depend on the processing

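The Car6 results turned on how its 2 probes were joined and on the floor of the scale. With the brightest probe of each gene, Car6 differed by 0.12 and 0 members were called, against 2.20 and 1; with the median of linear intensities it differed by 1.92. A pseudocount of 50 lowered the Car6 gene difference to 1.75 and that of probe 2 to 3.39, which put it at rank 4 of all probes in place of rank 1. The percentile of Car6 probe 2 was 48.8 over all arrays and 1.53 on MAZ1310 arrays alone. With a culture left out, probe 2 ranged from 4.21 to 4.39, the gene from 2.08 to 2.35 and probe 1 from -0.087 (without HF replicate 2) to 0.32. For the other members, 6 of 364 alternative values moved by 1 SD or more: Car5b to -0.39 with the brightest probe, -0.37 with linear medians and -0.31 without an array, Car8 to -0.32 with the brightest probe, and Car2 (gene and probe) to 0.17 with the median over technical arrays.

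Over all genes, the count higher in HF was 133 with the median over technical arrays. With the culture as a random block, 615 were higher and 513 lower, and the hypoxia count was 5 and that of the bicarbonate-using enzymes 1. The hypoxia count was 1 with the median over technical arrays and with the pseudocount. The pump count was 0 with the median over technical arrays, the dimmest 25% of probes left out, the brightest probe, or trend and robust eBayes. With a culture left out, between 33 (without HF replicate 2) and 135 (without MAZ1310 replicate 1) were higher and between 15 and 204 lower.

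Replicate numbers are shared between the treatments, but the labels do not say that a number marks a shared day or batch. The main fit therefore took no pairs. Deviations of cultures with the same number correlated at 0.67, 0.069 and 0.67. HF replicate 1 with MAZ1310 replicate 3 gave -0.61, and HF replicate 3 with MAZ1310 replicate 1 gave -0.69. Deviations were taken from the mean of their treatment, so these values depend on each other and do not decide whether the numbers mark pairs. With the replicate number as a block, 891 genes were higher and 901 lower, and the number of members called stayed at 1. Not every culture correlated best with its own number, as MAZ1310 replicate 2 did so with HF replicate 3 (0.28), which is a hint from the data and not from the design. The block gave 7 hypoxia genes, 3 exporters, 3 pump subunits and 1 bicarbonate-using enzyme past the threshold.

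After the data were seen, the fit was also run without technical array 3 of HF replicate 3, where probe 2 of Car6 gave 4.19, the exporter count was 1 and the pump count 0. Dim signal limits the members below the 90th percentile of the tissue-restricted probes, and n = 3 cultures limits the rest.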

Other observations

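The annotated neighbours of Car6 on chromosome 4, chosen after the Car6 values were seen, gave no difference of that size. On the side of lower coordinates, Slc2a5, a fructose carrier, stood at 5.96, 6.09 and 6.56 in HF, against 6.66, 7.08 and 7.15 in MAZ1310, a difference of -0.76 (SE 0.21, limma adjusted p = 0.114), and Gpr157 differed by -0.04 (limma adjusted p = 0.95). On the other side, Rere differed by -0.14 (limma adjusted p = 0.832) and Slc45a1 by -0.40 (limma adjusted p = 0.312). Slc2a7 and Eno1, the nearest gene on either side, were not analysed here.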
